A study of Danio rerio with 20 samples.

Results

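The PAR bZIP factors are the basic leucine zipper transcription factors through which the circadian clock reaches many of its output genes. Of the 9 genes named for this family, 8 were found among the 32105 genes of the count table. The members were chosen by gene symbol, ignoring case, with dbpa and dbpb also fixed by identifier. They and the gene lists used below were chosen with earlier results of these data known. Counts set beside the share over all genes are thus descriptions, with no test. The members are 5 PAR activators, dbpa (ENSDARG00000063014), dbpb (ENSDARG00000057652), tefa (ENSDARG00000039117), tefb (ENSDARG00000098103) and hlfa (ENSDARG00000074752), and 3 genes of the related nfil3 group, nfil3 (ENSDARG00000042977, listed as NFIL3), nfil3-5 (ENSDARG00000094965) and nfil3-6 (ENSDARG00000087188). No row carried the symbol hlfb, though the row named HLF may be that gene, which the symbols do not settle. A row with the symbol HLF (ENSDARG00000061011) and another with nfil3-4 (ENSDARG00000092346) are given as relatives and are not counted as members. All 8 members passed the filter on low counts.

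PAR proteins and NFIL3 bind the same DNA element, the D-box. In mammals DBP, TEF and HLF activate transcription there and NFIL3, also called E4BP4, represses it. The mammalian Dbp gene is driven through E-boxes by the CLOCK and BMAL1 pair, while Nfil3 is held down by the REV-ERB receptors, which compete with ROR activators at another element. As a result the activators and the repressor peak at opposite times of day in mammalian liver. In zebrafish, whose peripheral cells respond to light directly, D-box elements also take part in switching on light-induced genes such as per2 and those of DNA photolyases.

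The 20 libraries came from the skin of male zebrafish of the strain AB JxTu, 5 libraries in each of 4 groups. These were 1-year fish with no perturbation and 1-year fish exercised in a swim tunnel (a chamber with a water current). The other groups were 3-year fish with no perturbation and 3-year fish with the same swim-tunnel label. Neither the length of swimming nor the hour of sampling is stated in the labels. A difference in sampling hour between groups, a shift in clock phase and a change in daily mean level thus cannot be told apart. Samples of a group are separate by label, though nothing says that each is 1 fish, and p-values measure the spread between these samples. Total counts ranged from 29280697 to 52437698 per library. Levels are given as CPM, the count of a gene divided by its library's TMM-adjusted total. Genes were tested with edgeR (quasi-likelihood), and p-values were adjusted by Benjamini and Hochberg's method over 20788 genes. Adjusted p-values below 0.05 were called. Skin is a mixture of cells, and fewer cells of a type cannot be told apart from less RNA per cell.

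One library labelled as skin, replicate 1 of the unexercised 1-year group, has a count column named for muscle. Its score for 18 keratinocyte markers, the mean log2 CPM of the list, was 9.06, below all other libraries, and its score for 20 fast skeletal muscle markers was 6.21, within the 4.73 to 7.65 of the whole set. The keratinocyte score was 9.06 to 9.71 in unexercised and 10.03 to 10.60 in exercised 1-year libraries, and 9.16 to 9.42 and 9.51 to 10.10 in unexercised and exercised 3-year libraries (two-sided exact permutation p = 0.00794 at each age, the smallest that 5 against 5 allows, adjusted p = 0.0529 over 20 tests). The summed keratinocyte marker level was 56897 to 70697 CPM in unexercised and 72231 to 113075 CPM in exercised 1-year libraries, and 52360 to 63571 CPM and 50315 to 77940 CPM in unexercised and exercised 3-year libraries. None of these 18 markers was at 0 in all libraries. The part of this shift in the members' changes was not tested.

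The family was led by tefa when levels were set per length. In unexercised 1-year fish tefa stood at 141 ± 17.9 CPM per kilobase (SD, n = 5), nfil3 at 41.9 ± 12.6, nfil3-6 at 32.4 ± 18.8 and tefb at 28.2 ± 6.20. The remaining means were lower, with hlfa at 15.7 ± 3.14, nfil3-5 at 13.3 ± 7.40, dbpb at 5.28 ± 1.36 and dbpa at 3.37 ± 0.340 CPM per kilobase. The range of nfil3-6 over these libraries overlapped with those of nfil3, tefb, hlfa and nfil3-5, and that of nfil3-5 with dbpb. The ranges of nfil3 and tefb, of hlfa and nfil3-5, and of dbpb and dbpa overlapped too. The order below tefa is thus resolved only in part. In exercised 3-year fish tefa was still highest at 48.5 ± 8.52 CPM per kilobase, with nfil3 at 46.8 ± 12.0 and nfil3-5 at 30.5 ± 11.05, while dbpa was at 0.551 ± 0.151. The gap between tefa and nfil3, wide in unexercised 1-year fish, was thus within the spread of the samples in exercised 3-year fish.

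**Figure D1:**
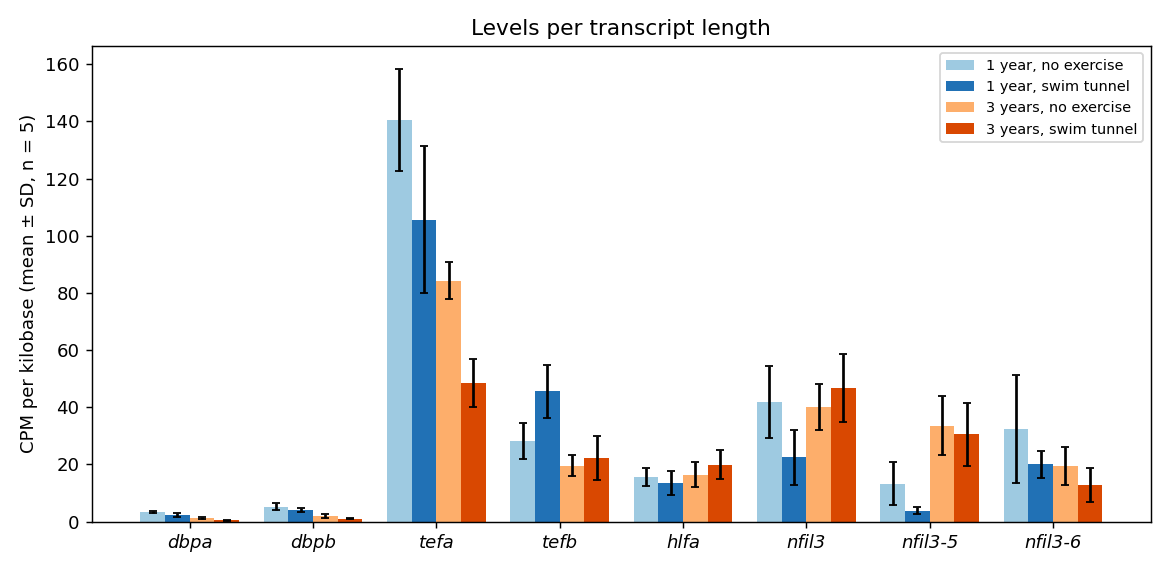
Mean level of each member per kilobase of gene model, in CPM per kilobase, in the 4 groups (bars, mean; error bars, SD, n = 5). The tefa bar falls from 141 in unexercised 1-year to 48.5 in exercised 3-year fish, while nfil3-5 goes from 3.82 in exercised 1-year to 33.6 in unexercised 3-year fish.

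As a share of the summed per-length level of the 5 PAR activators, tefa made up 68.5% to 77.2% in unexercised 1-year libraries, 51.6% to 70.6% in exercised 1-year libraries, 63.6% to 74.6% in unexercised 3-year libraries and 41.8% to 66.1% in exercised 3-year libraries. The pair of dbp genes together made up 4.10% to 4.99% in the first group and 1.54% to 2.01% in the last. Within the nfil3 group the share of nfil3-5 was 11.03% to 18.5% and 6.07% to 12.1% in unexercised and exercised 1-year libraries, against 30.3% to 46.9% and 23.5% to 43.9% at 3 years. The shares of nfil3-5 did not overlap between ages. The summed activators stood at 2.43 ± 0.803, 3.75 ± 0.580, 1.36 ± 0.303 and 1.08 ± 0.320 times the summed nfil3 genes (SD, n = 5) in unexercised 1-year, exercised 1-year, unexercised 3-year and exercised 3-year fish. These shares and ratios are descriptions, with no test.

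dbpa, one of 2 zebrafish counterparts of mammalian DBP, was lowest in exercised 3-year fish. Its level was 10.9, 11.3, 9.03, 9.97 and 9.20 CPM in unexercised 1-year replicates 1 to 5. It was 9.96, 5.81, 6.28, 6.14 and 5.27 CPM in exercised 1-year replicates. The exercised libraries were low except replicate 1, which lay inside the unexercised range. At 3 years dbpa stood at 3.03, 6.10, 2.45, 4.11 and 3.23 CPM without exercise and at 2.25, 2.02, 1.35, 1.32 and 1.304 CPM with exercise. Every exercised 3-year library lay below every unexercised one, and every unexercised 3-year library below every unexercised 1-year one. The order of the group means was unexercised 1-year, exercised 1-year, unexercised 3-year and exercised 3-year, and only the last of these did not overlap with its neighbour.

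dbpb, the other counterpart, followed the same order. It had 18.8, 21.7, 35.2, 33.0 and 28.0 CPM in unexercised 1-year libraries and 20.9, 18.8, 26.2, 21.1 and 19.1 CPM in exercised ones, which overlapped. At 3 years it had 9.01, 15.5, 8.14, 12.2 and 7.81 CPM without and 5.87, 5.59, 4.34, 4.42 and 6.79 CPM with exercise. Both 3-year groups lay wholly below both 1-year groups, and the exercised below the unexercised 3-year fish.

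tefa, a counterpart of mammalian thyrotroph embryonic factor, was the most abundant member. It had 381, 420, 497, 402 and 361 CPM in unexercised 1-year libraries and 282, 250, 400, 236 and 379 CPM in exercised ones. The 3-year libraries had 271, 259, 247, 234 and 223 CPM without exercise and 122, 115, 145, 151 and 178 CPM with exercise. The 3-year groups did not overlap with each other, and each lay below the 1-year group of the same treatment, while exercised 1-year libraries overlapped with both neighbouring groups in the order of means.

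tefb, the second tef gene, had a different order of groups. It had 45.6, 43.6, 69.3, 55.9 and 69.8 CPM in unexercised and 80.9, 97.9, 76.8, 122 and 81.9 CPM in exercised 1-year libraries. All exercised 1-year values lay above all unexercised ones. At 3 years it had 36.1, 50.02, 31.1, 42.7 and 36.9 CPM without and 51.1, 61.9, 30.3, 26.4 and 53.7 CPM with exercise. The 3-year groups overlapped with each other and with unexercised 1-year fish.

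hlfa, a counterpart of hepatic leukemia factor, overlapped between all groups, with 34.2 to 54.1 CPM in unexercised 1-year, 23.4 to 53.1 CPM in exercised 1-year, 28.6 to 55.9 CPM in unexercised 3-year and 32.3 to 67.0 CPM in exercised 3-year libraries. The row named HLF was low throughout, at 3.51 to 8.23, 1.12 to 3.33, 4.85 to 7.14 and 4.94 to 8.09 CPM in the same order of groups, and its exercised 1-year values lay below those of every other group.

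nfil3-5 had its lowest levels in exercised 1-year fish and its highest in 3-year fish. It had 31.3, 24.4, 88.8, 93.6 and 50.6 CPM in unexercised 1-year libraries and 22.7, 10.8, 14.7, 12.4 and 22.0 CPM in exercised ones. The exercised 1-year group lay wholly below the other 3. At 3 years it had 117, 115, 142, 129 and 224 CPM without and 189, 131, 170, 79.3 and 90.7 CPM with exercise. These 2 groups overlapped with each other, and only the unexercised one lay wholly above unexercised 1-year fish.

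nfil3 itself had 55.4 to 106 CPM in unexercised 1-year libraries, 26.0 to 74.5 CPM in exercised 1-year, 56.4 to 94.6 CPM in unexercised 3-year and 58.1 to 120 CPM in exercised 3-year libraries. Exercised 1-year fish had the lowest mean, 44.1 ± 18.8 CPM, and overlapped with the others through replicate 5 at 74.5 CPM. nfil3-6 spread widely, from 31.9 to 134 CPM in unexercised 1-year libraries alone, and had 32.6 to 62.3, 31.0 to 71.1 and 17.2 to 55.4 CPM in exercised 1-year, unexercised 3-year and exercised 3-year libraries. All its groups overlapped. nfil3-4 was at most 0.516 CPM, with 1 to 20 counts per library. In the RefSeq gene table of the assembly GRCz12tu, nfil3-6 and nfil3-5 each lie directly beside another nfil3 gene, nfil3-2 and nfil3-3, for which no row was found by symbol, and how reads of near copies were divided is not given in the sources used here.

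**Figure D2:**
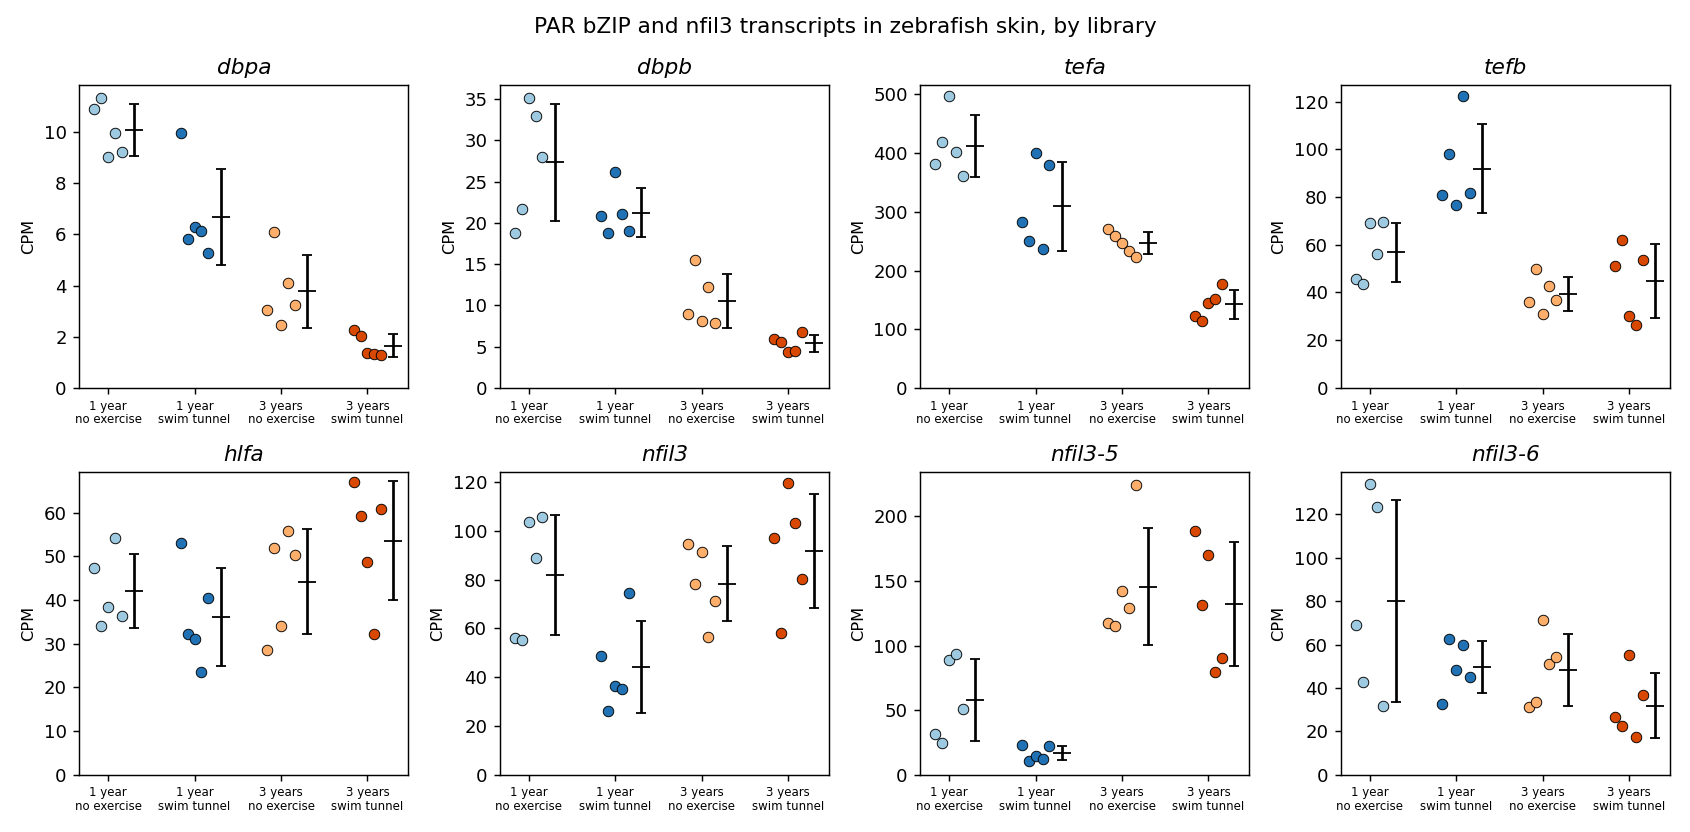
CPM of the 8 members in each library (points) with the group mean and SD (bars, n = 5), for 1-year and 3-year fish with and without swim-tunnel exercise. dbpa, dbpb and tefa step down across the groups, tefb is highest in exercised 1-year fish (76.8 to 122 CPM), and nfil3-5 is lowest there (10.8 to 22.7 CPM).

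The first comparison asked which members differed with exercise at 1 year. The repressor-type genes nfil3-5 and nfil3 fell and the activator tefb rose. This made 3 of 8 members called, where 15.5% of all genes were called. Values did not overlap for tefb and nfil3-5, 2 of 8, against 12.8% of all genes. On the log2 scale nfil3-5 changed by -1.80 (SE 0.36, adjusted p = 0.00325), a 3.49-fold lower level. nfil3 changed by -0.89 (SE 0.27, adjusted p = 0.0283), and tefb by 0.69 (SE 0.22, adjusted p = 0.0379), 1.62-fold. dbpa (-0.59, SE 0.23, adjusted p = 0.0897), dbpb (-0.37, SE 0.20, adjusted p = 0.237), tefa (-0.41, SE 0.15, adjusted p = 0.0697), hlfa (-0.22, SE 0.23, adjusted p = 0.566) and nfil3-6 (-0.69, SE 0.37, adjusted p = 0.225) did not pass. The median over the members was -0.50, against 0.01 over all genes. The HLF row fell by 1.13 (SE 0.27, adjusted p = 0.00874).

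Of the 1-year calls, nfil3-5 held without any 1 of the 20 libraries, with a highest adjusted p of 0.0135. The call of tefb was lost without unexercised 1-year replicate 1, the one whose column is named muscle, where it was 0.62 (adjusted p = 0.0993), and without replicates 2 and 4 of that group and exercised replicates 2 and 4, where it was 0.57 to 0.69. The call of nfil3 was lost without unexercised 1-year replicates 3, 4 or 5 or exercised replicates 2, 3 or 4, where it was -0.76 to -0.86, as with the compared groups alone (-0.89, adjusted p = 0.0543) and with the hepatocyte score as a covariate (-0.74, adjusted p = 0.178). That of tefb was also lost with no filter on low counts (0.67, adjusted p = 0.0535). No fit took the keratinocyte score as a covariate, and its part in the rise of tefb was not tested. Exercised 1-year replicates 4 and 2 had their group's highest keratinocyte scores (10.60 and 10.45) and highest tefb (122 and 97.9 CPM). In unexercised 3-year fish replicate 1 had the lowest score (9.16), while replicate 3, at 9.39, had the lowest tefb (31.1 CPM). The hepatocyte score, the mean log2 CPM of 27 hepatocyte markers, was 2.13 to 3.01 in unexercised and 2.87 to 6.48 in exercised 1-year libraries. Summed levels were 245 to 460 and 408 to 5770 CPM with no marker at 0 in all libraries, and 22 of the 27 markers rose. With this score as a covariate the call of the HLF row was lost too (-1.06, adjusted p = 0.0606).

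The second comparison asked the same at 3 years. The activators dbpa, dbpb and tefa fell and the nfil3 genes did not pass. This was 3 of 8 members, all lower, where 1.32% of all genes were called and 0.52% were called lower. dbpa changed by -1.20 (SE 0.24, adjusted p = 0.0249), a 2.30-fold lower level, dbpb by -0.96 (SE 0.21, adjusted p = 0.0326) and tefa by -0.80 (SE 0.15, adjusted p = 0.0237). For these 3 the groups did not overlap, all being lower, against 4.32% of all genes in either direction and 2.49% lower. tefb was at 0.18 (SE 0.22, adjusted p = 0.693), hlfa at 0.28 (SE 0.23, adjusted p = 0.543), nfil3 at 0.22 (SE 0.26, adjusted p = 0.685), nfil3-5 at -0.14 (SE 0.35, adjusted p = 0.865) and nfil3-6 at -0.60 (SE 0.37, adjusted p = 0.396). The median over the members was -0.37, against 0.01 over all genes.

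These 3-year calls lay near the threshold. In the fits without a library the call of tefa was lost without unexercised 3-year replicate 1 (-0.76, adjusted p = 0.0575). That of dbpa was lost without unexercised 3-year replicate 2 (-0.96) or exercised 3-year replicate 5 (-1.13), and that of dbpb without unexercised 3-year replicates 1, 2 or 4 or exercised 3-year replicates 3 or 4 (-0.78 to -1.01), with a highest adjusted p of 0.0678. Adding the muscle score to the fit left dbpa as the only member called, with 51 of all genes called against 275 in the main fit. With the hepatocyte score, with the compared groups alone and with limma voom, tefa was the only member called. Of all genes 58, 50 and 39 were called there. The fast skeletal muscle score was 4.73 to 6.43 in unexercised and 4.93 to 7.65 in exercised 3-year libraries, with summed levels of 3098 to 7635 and 2774 to 19330 CPM over 21 genes, none at 0 in all libraries.

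**Figure D3:**
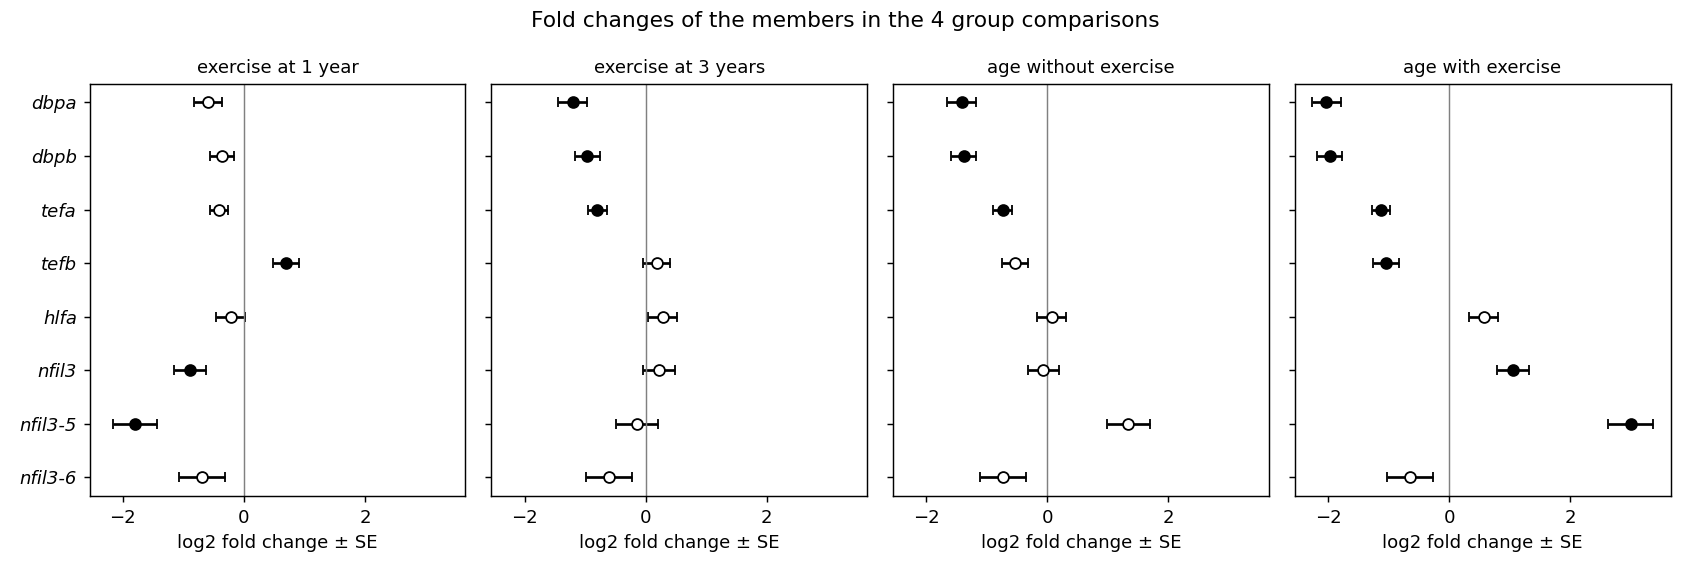
Log2 fold change ± SE of each member in the 4 group comparisons, with filled points where the adjusted p was below 0.05 in edgeR's test. dbpa, dbpb and tefa lie left of 0 in all 4 panels, and nfil3-5 reaches 3.00 with age in exercised fish.

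The effects of exercise at 1 and 3 years were -1.80 and -0.14 for nfil3-5 and -0.89 and 0.22 for nfil3, while those of nfil3-6 were -0.69 and -0.60, and the difference between ages did not pass for any member. In edgeR's test 0 of 8 members were called, where 0.00481% of all genes were, and 2 members had an unadjusted p below 0.05. nfil3-5 had a difference of 1.66 (SE 0.50, adjusted p = 0.156) and nfil3 of 1.12 (SE 0.37, adjusted p = 0.194), 3-year effect minus 1-year effect. DESeq2 called nfil3-5 (1.66, adjusted p = 0.0404) and no other member, where it called 500 of all genes. By limma voom no member was called, and 2 of all genes were. Averaged over ages, exercised differed from unexercised fish by -0.90 in dbpa (SE 0.17, adjusted p = 0.00146) and -0.66 in dbpb (SE 0.14, adjusted p = 0.00432). tefa differed by -0.60 (SE 0.11, adjusted p = 0.00104) and nfil3-5 by -0.97 (SE 0.25, adjusted p = 0.0114). That was 4 of 8 members, where 19.7% of all genes were called and 10% were called lower. The calls of the 3 activators held in all 20 fits without a library and in all 8 other settings, while that of nfil3-5 was lost with limma voom (-0.75, adjusted p = 0.0524). tefb was at 0.44 (SE 0.15, adjusted p = 0.0525).

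The next comparison set unexercised 3-year against unexercised 1-year fish. Again dbpa, dbpb and tefa were lower, 3 of 8 members, where 0.967% of all genes were called and 0.471% were called lower. dbpa changed by -1.41 (SE 0.24, adjusted p = 0.00956) and dbpb by -1.38 (SE 0.21, adjusted p = 0.0041), 2.67-fold and 2.60-fold lower levels, and tefa by -0.74 (SE 0.15, adjusted p = 0.0285). nfil3-5 was higher in every unexercised 3-year than in every unexercised 1-year library, by 1.33 on the log2 scale (SE 0.36), and did not pass (adjusted p = 0.0777). DESeq2 and limma voom called it, at 1.33 (adjusted p = 0.0107) and 1.69 (adjusted p = 0.0114). They called 842 and 933 of all genes, against 201 in edgeR's main fit. It was also called by edgeR without unexercised 1-year replicate 3, at 1.54 (adjusted p = 0.0484), with 299 of all genes called. tefb (-0.53, SE 0.22, adjusted p = 0.227), hlfa (0.07, SE 0.23, adjusted p = 0.903), nfil3 (-0.06, SE 0.26, adjusted p = 0.923) and nfil3-6 (-0.73, SE 0.37, adjusted p = 0.321) did not pass. Values did not overlap in 4 of 8 members, against 5.08% of all genes. The calls of dbpa and dbpb held in all 20 fits without a library. That of tefa was lost without unexercised 1-year replicates 1 or 2 or unexercised 3-year replicates 2, 3, 4 or 5 (-0.71 to -0.77, highest adjusted p = 0.0822).

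The last comparison set exercised 3-year against exercised 1-year fish, where the members differed most. All 4 dbp and tef genes fell, and nfil3-5 and nfil3 rose, 6 of 8 members where 17.2% of all genes were called. Values did not overlap in 5 of 8, all but nfil3, hlfa and nfil3-6, against 9.13% of all genes. nfil3-5 went from 16.5 ± 5.50 to 132 ± 47.9 CPM (SD, n = 5), which is 3.00 on the log2 scale (SE 0.38, adjusted p = 0.000258), 7.99-fold. nfil3 rose by 1.05 (SE 0.27, adjusted p = 0.0133), and by 0.94 (adjusted p = 0.0656) with the hepatocyte score as a covariate. dbpa changed by -2.03 (SE 0.24, adjusted p = 0.000134), 4.07-fold lower, dbpb by -1.97 (SE 0.21, adjusted p = 5.04e-05), 3.93-fold lower, tefa by -1.12 (SE 0.15, adjusted p = 0.000499) and tefb by -1.04 (SE 0.22, adjusted p = 0.00594). hlfa was at 0.57 (SE 0.23, adjusted p = 0.0959) and nfil3-6 at -0.64 (SE 0.38, adjusted p = 0.246). All 6 calls held in each of the 20 fits without a library. The HLF row rose by 1.45 (SE 0.27, adjusted p = 0.00302). In these groups the score of 18 leukocyte markers went from 2.62 ± 0.158 to 3.40 ± 0.414 (two-sided exact permutation p = 0.00794, adjusted p = 0.0529), with summed levels of 348 to 401 and 326 to 923 CPM and none at 0 in all libraries. Of the 18 leukocyte markers, several of which are rows of 1 symbol, MFAP4, 7 rose. Of the 27 hepatocyte markers 18 fell (median -2.19), with scores of 4.57 ± 1.48 and 2.71 ± 0.862 (exact permutation p = 0.0556, adjusted p = 0.139) and summed levels of 408 to 5770 and 240.5 to 918 CPM. Of the 18 keratinocyte markers 8 fell and 1 rose, with a score difference of -0.43 (exact permutation p = 0.0159, adjusted p = 0.0635). Beyond the fits with the hepatocyte score, the part of these shifts in the members' changes was not tested.

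The comparisons share groups: exercised 1-year fish enter the first and the last, so the low nfil3-5 and high tefb values of that group are in both. Averaged over exercise, age changed dbpa by -1.72 (SE 0.17, adjusted p = 8.03e-06), dbpb by -1.68 (SE 0.15, adjusted p = 3.11e-06), tefa by -0.93 (SE 0.11, adjusted p = 4.07e-05), tefb by -0.79 (SE 0.16, adjusted p = 0.00291) and nfil3-5 by 2.17 (SE 0.26, adjusted p = 6.46e-05). That was 5 of 8 members, where 20.3% of all genes were called. The interval of the age effect on hlfa, which did not pass, was -0.03 to 0.67 (95%, log2).

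Other clock genes were counted in lists beside the members. Of all genes 15.5% and 1.32% were called with exercise at 1 and 3 years, and 0.967% and 17.2% with age without and with exercise. The clock activator list matched 4 genes, npas2, bmal2 and 2 rows named CLOCK, and BMAL1 (ENSDARG00000006791) was not matched by it. BMAL1, named below for its likeness to nfil3-5, changed by -1.10 (SE 0.23, adjusted p = 0.00488) with exercise at 1 year. At 3 years it was at -0.02 (SE 0.23, adjusted p = 0.974). With age it was at 0.52 (SE 0.23, adjusted p = 0.263) without exercise and rose by 1.59 (SE 0.24, adjusted p = 0.000804) with exercise. CLOCK (ENSDARG00000003631) fell by 0.64 (SE 0.13, adjusted p = 0.0027) with exercise at 1 year, the only call of the 4 in edgeR's test. At 3 years none of the 4 passed by edgeR's test, 1 of them having an unadjusted p below 0.05, npas2 at 0.45 (SE 0.19, adjusted p = 0.207). With age in exercised fish 3 of 4 rose, bmal2 by 1.56 (SE 0.19), CLOCK (ENSDARG00000003631) by 0.75 (SE 0.13) and CLOCK (ENSDARG00000011703) by 0.82 (SE 0.24), and without exercise 1 did, bmal2 by 0.91 (SE 0.18, adjusted p = 0.0283).

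Among 15 clock repressors, which dampen CLOCK and BMAL activity, 3 rose and 2 fell with exercise at 1 year (list median 0.00, all genes 0.01). At 3 years 1 rose and 2 fell (median -0.06). Of all genes 15.5% and 1.32% were called in these comparisons. With age 2 rose and 4 fell without exercise (median -0.90, all genes 0.02), where 0.967% of all genes were called. With exercise 1 rose and 12 fell with age (median -1.03, all genes 0.02), where 17.2% were called. PER1 (ENSDARG00000012499), a period repressor, had 96.1 ± 15.2, 55.6 ± 10.2, 39.3 ± 6.99 and 16.1 ± 3.55 CPM in unexercised 1-year, exercised 1-year, unexercised 3-year and exercised 3-year fish, the order of groups found in dbpa and dbpb. A second PER1 row (ENSDARG00000056885) did not pass with exercise. It was at -0.31 (SE 0.51, adjusted p = 0.726) at 1 year and -0.40 (SE 0.52, adjusted p = 0.721) at 3 years. cry3b, a cryptochrome, rose in all 4 comparisons, from 24.2 ± 6.96 CPM in unexercised 1-year to 147 ± 31.7 CPM in exercised 3-year fish.

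The receptors that act upstream of NFIL3 in mammals were also counted. Of 11 measured nuclear receptors of the clock, 4 fell with exercise at 1 year (median -0.32), where 15.5% of all genes were called. At 3 years 2 fell (median -0.06, 1.32% of all genes called). With age 1 rose and 1 fell without exercise (median 0.00, 0.967% of all genes called). With exercise 3 rose and 2 fell with age (median -0.14, 17.2% of all genes called). NR1D1 (ENSDARG00000033160), a REV-ERB receptor, had 87.9 ± 46.4, 17.1 ± 4.4, 14.7 ± 6.25 and 2.80 ± 1.04 CPM in the same order of groups and fell in all 4 comparisons, with log2 changes between -2.36 and -2.62. rorcb, a ROR family gene, had 14.8 ± 8.004 and 5.59 ± 3.36 CPM in unexercised and exercised 1-year fish. At 3 years it had 44.4 ± 13.4 and 45.3 ± 13.8 CPM without and with exercise. It changed by -1.403 (SE 0.37, adjusted p = 0.0162) with exercise at 1 year, was at 0.03 (SE 0.36) at 3 years, and rose by 1.58 (SE 0.37, adjusted p = 0.0444) and 3.02 (SE 0.39, adjusted p = 0.000327) with age without and with exercise.

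The zebrafish light-responsive list held 9 measured genes, of which PER2 is also among the repressors. Of the 9, 3 rose and 1 fell with exercise at 1 year and 3 fell at 3 years. In these comparisons 15.5% and 1.32% of all genes were called. With age 1 fell without exercise, where 0.967% of all genes were called. With exercise 1 rose and 7 fell with age (median -0.91, all genes 0.02), where 17.2% were called. cry5, listed here as a photolyase-type gene, rose by 0.83 (SE 0.22, adjusted p = 0.0145) with exercise at 1 year, from 26.8 ± 8.75 to 47.5 ± 4.90 CPM, and fell by 2.14 (SE 0.22, adjusted p = 5.04e-05) with age in exercised fish. The repair gene DDB2 fell by 0.81 (SE 0.13, adjusted p = 0.0118) and cry-dash by 0.92 (SE 0.16, adjusted p = 0.0161) with exercise at 3 years. PER2 rose by 0.67 (SE 0.22, adjusted p = 0.0436) with exercise at 1 year.

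Of 15 genes whose mammalian counterparts are known targets of PAR proteins or NFIL3, in bile acid, haem and drug metabolism, 4 rose and 2 fell with exercise at 1 year (median 0.43, all genes 0.01). In the same comparison 15.5% of all genes were called, and 22 of 27 hepatocyte markers rose (median 2.89). None passed at 3 years in edgeR's test, the lowest p being that of POR (ENSDARG00000055092) at 0.71 (SE 0.18, adjusted p = 0.0552). With age 1 fell without exercise, where 0.967% of all genes were called. It was PDXK (ENSDARG00000036546), 1 of 2 rows for pyridoxal kinase, by 1.14 (SE 0.25, adjusted p = 0.0387), from 2.84 to 1.29 CPM. The other PDXK row (ENSDARG00000088959), with 16.9 and 18.1 CPM in these groups, was at 0.10 (SE 0.22, adjusted p = 0.847). With age in exercised fish 3 of 15 fell, near the share of all genes called, 17.2%. There 18 of 27 hepatocyte markers also fell. The part of the hepatocyte markers' shift in this list was not tested. CYP7A1, which starts bile acid synthesis from cholesterol, changed by -3.11 (SE 0.58, adjusted p = 0.00226) at 1 year, from 548 ± 327 to 63.5 ± 44.4 CPM. At 3 years it was at -2.06 (SE 0.56, adjusted p = 0.0696), from 568 ± 232 to 136 ± 87.9 CPM. Averaged over ages the exercise difference of CYP7A1 was -2.59 (SE 0.40, adjusted p = 0.000505). POR (ENSDARG00000055092), the electron donor of cytochrome P450 enzymes, rose at 1 year from 26.8 ± 4.64 to 56.1 ± 16.7 CPM by 1.07 (SE 0.18, adjusted p = 0.00136). The other POR row (ENSDARG00000059035) was more abundant, at 495 ± 230 and 907 ± 294 CPM in these groups, and did not pass with exercise. It was at 0.88 (SE 0.38, adjusted p = 0.123) at 1 year and -0.15 (SE 0.37, adjusted p = 0.869) at 3 years. PPARA (ENSDARG00000054323), a lipid-sensing receptor, fell by 0.68 (SE 0.19, adjusted p = 0.0217) with age in exercised fish. Targets known from mammalian liver need not be targets in zebrafish skin, which was not tested.

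Genes whose log2 CPM followed each member most closely over the 20 libraries were named by Pearson's r, as a description with no test, since 20 libraries in 4 groups carry the group differences. For dbpa these were si:ch211-132b12.7 (r = 0.96), PER1 (ENSDARG00000012499, r = 0.95) and dbpb (r = 0.94). For dbpb they were si:ch211-132b12.7 (r = 0.94), dbpa (r = 0.94) and PER1 (r = 0.92). For tefa they were ZNF395 (r = 0.95), HSF2 (r = 0.94) and PER1 (r = 0.90). These are the activators that step down across the groups. After each group's mean was subtracted, r with PER1 was 0.54 for dbpa, 0.30 for dbpb and -0.08 for tefa. Each gene was picked for a high r in these same libraries, so r with group means removed depends in part on that choice.

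nfil3-5 had rorcb (r = 0.96) and BMAL1 (ENSDARG00000006791, r = 0.92) among its nearest genes, with r = 0.77 and 0.60 once group means were removed. BMAL1, the partner of CLOCK, had 19.6 ± 5.40, 9.15 ± 4.37, 28.1 ± 0.896 and 27.7 ± 3.69 CPM across the groups, lowest in exercised 1-year fish like nfil3-5. tefb had WBP1L, CA5B and hsh2d (r = 0.94, 0.94 and 0.93), with r = 0.88, 0.89 and 0.88 within groups, in the libraries used to pick them. CA5B, a mitochondrial carbonic anhydrase, had 49.5 ± 12.3, 96.6 ± 30.6, 35.8 ± 3.74 and 50.7 ± 19.6 CPM. hlfa was nearest to TULP4 (r = 0.81), nfil3 to TEFM (r = 0.84) and nfil3-6 to ZC3H12A (r = 0.85), a ribonuclease that limits inflammatory transcripts.

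**Figure D4:**
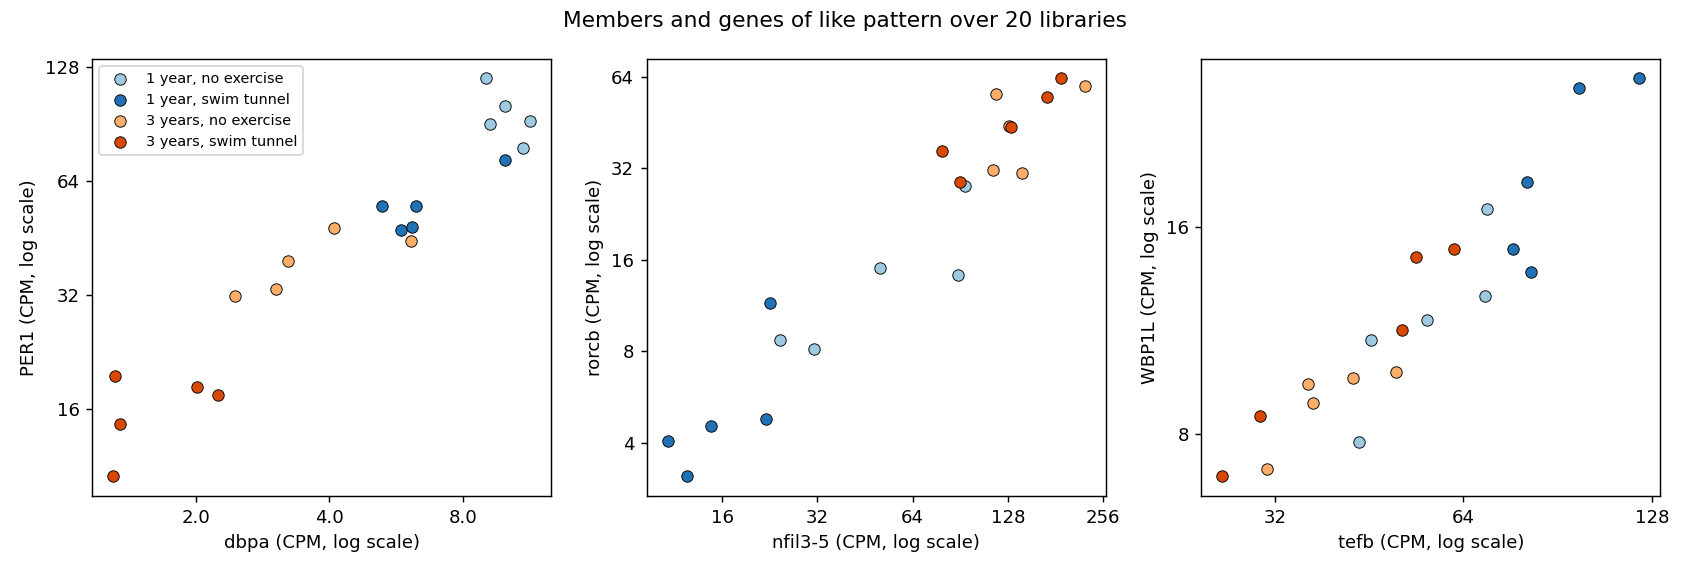
CPM of dbpa against PER1 (ENSDARG00000012499), nfil3-5 against rorcb and tefb against WBP1L in 20 libraries, both axes on log scales, coloured by group. In the middle panel exercised 1-year libraries lie at the lower left and 3-year libraries at the upper right, and in the left panel exercised 3-year libraries lie at the lower left.

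Whether members deviated together from library to library within a group was tested on log2 CPM with group means removed, over 28 pairs and 20 libraries. No pair passed an adjusted p of 0.05 by Pearson's r or Spearman's rho (permutation within groups, 100000 draws), while 4 pairs had an unadjusted p below 0.05 by Pearson's r. The lowest p was that of dbpb and tefb (r = 0.64, permutation p = 0.00331, adjusted p = 0.0927; rho = 0.66, permutation p = 0.00329, adjusted p = 0.0921), with r = 0.59 without the 2 libraries farthest from the median of dbpb. nfil3 and nfil3-5 had r = 0.56 (permutation p = 0.0256, adjusted p = 0.225) and rho = 0.52 (permutation p = 0.0442, adjusted p = 0.309). dbpa and dbpb, so alike across groups, had r = 0.40 within them (permutation p = 0.119, adjusted p = 0.451) and rho = 0.34 (permutation p = 0.162, adjusted p = 0.464). No pair of an activator and an nfil3 gene passed with a negative r or rho. The lowest r was -0.37 for dbpa and nfil3-6 (permutation p = 0.0779, adjusted p = 0.436). The lowest rho was -0.43 for dbpa and nfil3 (permutation p = 0.0639, adjusted p = 0.358). That pair had r = -0.29 over all 20 libraries and r = -0.51 without the 2 farthest from the median of dbpa.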

How the data were processed

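Skin RNA libraries, 20 in all, were compared. Per the labels they came from a TruSeq RNA v2 kit, which does not mark strand. Tools named by the submitters' processing notes are bcl2fastq 1.8.4, STAR 2.4.1d, featureCounts 1.4.6-p4 and the build GRCz10. The annotation is not given in the sources used here. The authors deposited raw read counts per gene, which were used as they stand. In the RPKM values that the authors deposited, library totals ran down the gene list (implied gene lengths varied by 0.00384% on that reading and 23.2% with own totals, over 11517 genes), so RPKM served only to recover gene lengths. Chi-square per degree of freedom between libraries of a group was at least 44.6, and none was counted as a duplicate. Of 32105 genes 26269 had a symbol.

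All libraries entered 1 fit of 4 group means in edgeR 4.0.16 (R 4.3.3; TMM, filterByExpr, robust quasi-likelihood F-tests, 16 residual degrees of freedom, biological coefficient of variation 34.7%). The tests were tried on simulated counts. Marker scores (5 lists in 4 comparisons) were compared by exact permutation, member pairs by permutation within groups. A planned test of the ratio of activators to nfil3 genes was not made, because the members were chosen with earlier results of these data known, as were all lists and rules. Named genes were the members, up to 4 called genes per list and comparison by p (or that of lowest p), of which a selection is printed, and the 3 genes of highest r per member, again with a selection printed. One gene so named is not reported here. Alternatives were RLE and upper-quartile scaling, no and stricter filters, DESeq2 1.42.0, limma 3.58.1 voom, the compared groups alone, muscle and hepatocyte covariates, and each library left out. The limma voom fits, here and above, gave each library a quality weight. No sequence is printed.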

Additional observations from a re-analysis of the deposited data

Results flagged for a closer look

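Replicate 1 of the exercised 1-year fish stood apart for dbpa, at 9.96 CPM against 5.27 to 6.28 CPM in the other 4 libraries of its group. Without it the exercise effect at 1 year was -0.79 and dbpa was called (adjusted p = 0.0284). Replicate 5 of the unexercised 3-year fish stood apart for nfil3-5, at 224 CPM against 115 to 142 CPM in the others, and without it the exercise effect at 3 years was 0.07. Chance flags about 1 in 20 groups, and 32 were looked at.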

How the results depend on the processing

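For age with and without exercise and both averaged comparisons, the count of members called stayed within 1.5 times across the alternatives run. With exercise at 1 year it was 1 to 4 in the fits without a library (main 3), where 1909 to 3534 of all genes were called (main 3227). At 3 years it was 1 with limma voom, the compared groups alone, the muscle covariate and the hepatocyte covariate, and 1 to 3 without a library (main 3). Of all genes 39, 50, 51 and 58 were called in those settings in turn, and 42 to 390 without a library (main 275). For the difference between ages the count of members called was 1 with DESeq2 (main 0), with 500 of all genes called (main 1). Of 20 marker tests, 0 passed an adjusted 0.05, and 0 to 4 without a library, 4 being without unexercised 1-year replicate 5. Sign changes fell on uncalled effects: hlfa with exercise averaged over ages was -0.15 with the muscle covariate and -0.067 to 0.097 without a library, nfil3 with age without exercise was 0.041 with limma voom and -0.18 to 0.038 without a library, nfil3-6 in the difference between ages was -0.0318 with the muscle covariate, -0.13 with limma voom and -0.21 to 0.29 without a library, hlfa with age without exercise -0.029 to 0.19, and nfil3-5 with exercise at 3 years -0.31 to 0.070. The causes were not tested. With 1 to 20 counts per library nfil3-4 could show only very large changes.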
